A study of Homo sapiens with 6 samples.

Results

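The genes described here are 41 genes of glycolysis, lactate handling and the response to low oxygen, measured by RNA-seq in PANC-1, an established line of human pancreatic cancer cells. They were chosen by name, and all 41 were found among the 30735 genes in the data by matching the Ensembl identifier of each row to a gene symbol. By role they are 2 glucose transporters, 17 glycolytic enzymes, 5 genes of lactate and pyruvate fate, 3 subunits of hypoxia-inducible factor (HIF), 3 genes of HIF turnover and 11 targets of HIF. The study asked what knockdown of CD73, the cell surface enzyme that makes adenosine from AMP and is encoded by NT5E, does to these cells. Every sample was grown in DMEM with fetal bovine serum, transfected by lipofection without serum, and used for total RNA. CD73 siRNA went into 3 samples and a negative control into the other 3, numbered 1 to 3 in each group and described as separate knockdown experiments. Whether the CD73 siRNA samples received a single siRNA sequence or several, the oxygen level of the cultures and the time of harvest are not given in the sources used here.

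Glycolysis splits glucose into pyruvate in the cytosol, and lactate dehydrogenase turns pyruvate into lactate, which monocarboxylate transporters carry across the membrane. HIF is a transcription factor made of an oxygen-sensitive alpha subunit (HIF1A or EPAS1) and a stable partner (ARNT). In oxygen, the EGLN prolyl hydroxylases mark the alpha subunit and VHL hands it to the proteasome. HIF binds the core letters RCGTG in the hypoxia response elements of many glycolytic genes. Much of the control of HIF1A acts on the protein, which RNA-seq does not measure. Pancreatic cancers are known for dense, poorly perfused tissue and for high glycolysis.

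LDHA and PFKL were among the genes with the clearest difference between groups. SLC16A1 was another but had no promoter entry. ADM and BNIP3 were the HIF targets with the clearest difference between replicate numbers. Stretches of the promoters of LDHA, PFKL, ADM and BNIP3 are shown for this reason. They come from the RefSeq promoter table (GRCh38.p14), each is 30 bases long and written 5′ to 3′ on the strand of its gene, and capitals mark ACGTG or GCGTG on either strand, with CACGTG holding ACGTG on both.
LDHA, chr11:18394471-18394500, plus strand: actcaCACGTGggttcccgCACGTccgccg
PFKL, chr21:44299877-44299906, plus strand: tgctcagggcccGCGTGacattgcacaggt
ADM, chr11:10304960-10304989, plus strand: gagcaggagcgcGCGTGgctgaggaaagaa
BNIP3, chr10:131982036-131982065, minus strand: acgcgccgCACGTGccaCACGCaccccacg
The LDHA stretch lies 92 to 63 bases before an annotated start and holds 3 matches, counting both strands. The BNIP3 stretch, 142 to 113 bases before the start, also holds 3. Of the 41 genes, 36 had an entry in the table. Windows from 250 bases before to 50 after a start held the letters in 67.2% of 64 windows of these genes, 62.4% of the windows of all genes tested, and 48.4% of all 35116 windows. A match of letters is a description of the sequence and not a measured binding site.

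Levels were given as RPKM, reads scaled by gene length and library size. The library size behind each sample, inferred from the values, was between 15009105 and 16836202 reads. NT5E, the targeted gene, had 3.36, 6.85 and 8.22 RPKM with CD73 siRNA and 14.0, 13.9 and 17.1 RPKM in the negative control, so it stood at 40.99% of the control mean (log2 difference -1.23, SE 0.258, limma, unadjusted p = 0.00144, adjusted p = 0.303). Of 7 ductal and PANC-1 markers, 6 reached 1 RPKM in at least 1 sample and KRT7 did not. EPCAM (0.802 and 0.582 RPKM) and CDH1 (0.433 and 0.421 RPKM) stayed below it in CD73 siRNA 3 and negative control 3. The summed level of the 7 markers was 254 to 360 RPKM with CD73 siRNA and 368 to 516 RPKM in the control. VIM was its largest part, at 183 to 263 RPKM, and the keratins KRT8 and KRT18 were lower in every CD73 siRNA sample. Of 9 markers of other cell types, 8 stayed below 1 RPKM and the summed level was 9.08 to 16.5 RPKM with CD73 siRNA and 10.8 to 19.3 RPKM in the control. Almost all of it was COL1A1. The part of these markers in the results below was not tested.

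In control cells the lower part of glycolysis was among the most abundant messages measured. ENO1 (enolase 1) ranked 27th of 30735 genes by mean control level, with 674, 595 and 605 RPKM, and GAPDH (glyceraldehyde-3-phosphate dehydrogenase) ranked 28th, with 592, 539 and 567 RPKM. LDHB, TPI1, PGAM1, ALDOA and LDHA followed between ranks 57 and 98, and PKM and PGK1 stood at ranks 140 and 177. The first steps were lower in RPKM, with the glucose transporter SLC2A1 at 13.5 ± 2.44 RPKM (SD, n = 3). HK1 (hexokinase 1) had 33.4 ± 2.88 RPKM, GPI (glucose-6-phosphate isomerase) 29.9 ± 3.01 RPKM and PFKP, a phosphofructokinase, 59.0 ± 5.67 RPKM. These levels and ranks depend on the length used, the merged length of all annotated exons of a gene. It was 10680 bases for GPI against 2700 for TPI1 and 2568 for PGAM1. All 41 genes together held 1.24% ± 0.0188 of the summed RPKM in the control and 1.23% ± 0.0535 with CD73 siRNA (SD, n = 3 each, exact permutation test, two-sided, p = 0.8).

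**Figure D1:**
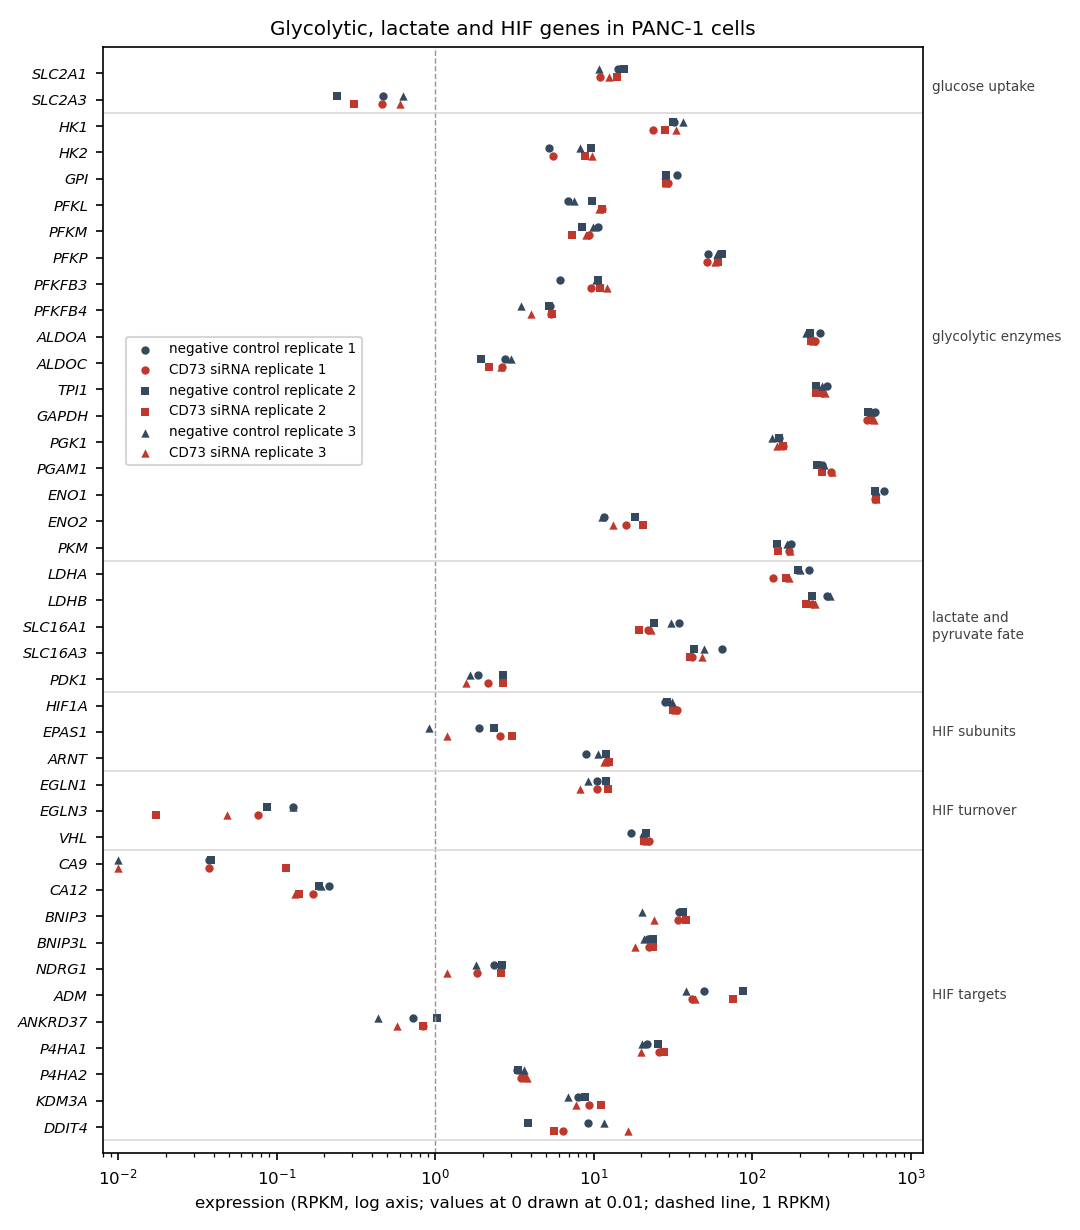
Level of each of the 41 genes in each of the 6 samples, in RPKM on a log axis, ordered by role, with points for negative control and CD73 siRNA. ENO1 and GAPDH lie at the top near 600 RPKM, while CA9, CA12 and EGLN3 lie below 0.3 RPKM in every sample.

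Within several isoenzyme pairs among the 41 genes, the control cells expressed mainly a single gene. RPKM is per merged exon length, which can exceed the length of the expressed transcript to a different degree in each gene. Levels and shares of different genes can therefore be compared only roughly. Each share below is of the summed RPKM within the members of a family that belong to the 41 genes, which need not be the whole family. SLC2A1 held 96.6% ± 1.99 (SD, n = 3) of the transporter pair with SLC2A3, a neuronal-type transporter that had only 0.466, 0.24 and 0.627 RPKM. Outside this pair, SLC2A6, another transporter of the same family, had 15.8, 10.3 and 16.8 RPKM in the control, a mean of 14.3 ± 3.53 RPKM that did not differ from that of SLC2A1 beyond the spread. Among aldolases, ALDOA, the muscle and general form, held 98.9% ± 0.26 against ALDOC, the brain form, which had 2.77, 1.96 and 3.004 RPKM. ALDOA shares 53.5% of its exon length with other annotated genes, so that its count depends on how such reads were assigned. ENO1 held 97.8% ± 0.712 of the enolase pair and ENO2, the neuronal enolase, the rest, at 11.6, 18.4 and 11.3 RPKM, while ENO3, the muscle enolase outside this pair, had a mean of 7.17 ± 1.37 RPKM. Each of these dominant genes exceeded its partner by more than 30 times in the control means.

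Hexokinase and phosphofructokinase were more mixed. HK1, with 31.99, 31.5 and 36.7 RPKM, held 81.4% ± 4.73 of the hexokinase pair, and HK2, the inducible hexokinase, had 5.20, 9.64 and 8.19 RPKM. PFKP, the platelet form of phosphofructokinase, had 53.0, 64.2 and 59.9 RPKM and held 76.8% ± 1.56 of the family of 3. The muscle form PFKM, at 12.7% ± 2.42, and the liver form PFKL, at 10.4% ± 1.20, did not differ beyond their spread. PFKFB3, which makes the phosphofructokinase activator fructose-2,6-bisphosphate, held 65.1% ± 10.6 of its pair with PFKFB4, and PFKFB2, outside the pair, had a mean of 4.94 ± 0.70 RPKM. This share was the most variable among the glycolytic pairs, from 53.8% in control 1 to 74.7% in control 3.

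Both lactate dehydrogenase subunits were abundant. LDHB, the subunit typical of heart, held 57.4% ± 2.74 of the pair in RPKM. LDHA, the subunit typical of muscle and a HIF target, held 42.6% ± 2.74, and LDHB was above LDHA in all 6 samples. This order depends on the exon length used, 2983 bases for LDHB and 6210 for LDHA. In reads per sample LDHA had 13506 to 22668 and LDHB 10252 to 14172. Which of the 2 messages was the more abundant is therefore not settled here. SLC16A3, the monocarboxylate transporter MCT4, known for exporting lactate, had 64.1, 42.9 and 49.8 RPKM and held 63.7% ± 1.67 of its pair with SLC16A1, which encodes the transporter MCT1. Among the regulators, EGLN1 held 98.9% ± 0.325 of the pair with EGLN3, and HIF1A 94.5% ± 2.41 of the pair with EPAS1. EGLN1 had 10.5, 11.9 and 9.24 RPKM, and EPAS1 1.88, 2.36 and 0.912 RPKM. P4HA1, a subunit of the collagen prolyl hydroxylase, held 86.7% ± 1.90 of its pair, with 21.8, 25.5 and 20.3 RPKM against 3.28, 3.32 and 3.66 RPKM for P4HA2. The mitophagy receptors BNIP3 and BNIP3L were close, at 57.0% ± 6.72 and 43.0% ± 6.72. The carbonic anhydrases CA9 and CA12, known for raising at low oxygen the capacity to handle acid, rested on 0 to 3 and 16 to 25 reads per sample, too few for a share.

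**Figure D2:**
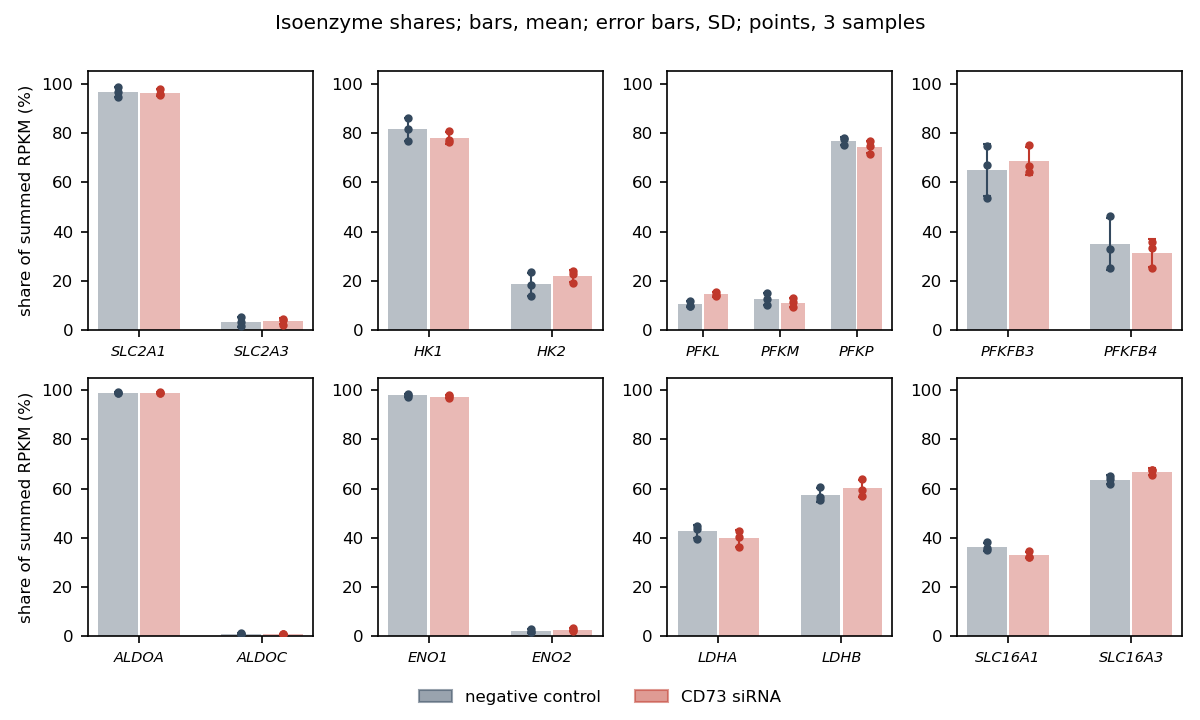
Share of each gene in the summed RPKM of its isoenzyme family, in percent, for negative control and CD73 siRNA, with points for samples and bars for the mean of 3. ALDOA and ENO1 hold over 96% of their pairs in every sample, and PFKL holds 13.8% to 15.5% with CD73 siRNA against 9.67% to 11.8% in the control.

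Most isoenzyme shares overlapped between the groups. The share of PFKL was higher in every CD73 siRNA sample, at 14.5% ± 0.887 against 10.4% ± 1.20 (SD, n = 3 each), a difference of 4.05 points. That of SLC16A1 was lower in every one, at 33.1% ± 1.29 against 36.3% ± 1.67, and the EGLN1 share was higher, at 99.5% ± 0.303 against 98.9% ± 0.325, which rests on 2 to 15 reads of EGLN3 per sample. For each of these shares the exact permutation test gave p = 0.1, two-sided, the smallest that 3 samples against 3 allow. The HK1 share was 78.0% ± 2.46 with CD73 siRNA against 81.4% ± 4.73, with groups that overlapped (exact p = 0.3), and the LDHA share 39.9% ± 3.39 against 42.6% ± 2.74 (exact p = 0.4).

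LDHA, which makes lactate from pyruvate, was lower with CD73 siRNA. Of the 36 genes tested it alone passed the threshold in the fit without the replicate number as a block. Over all genes tested 3.13% passed it. With the block it also passed (limma, unadjusted p = 0.00885, adjusted p = 0.127), as did LDHB and, with smaller p-values, PFKL and SLC16A1. In that fit 7.57% of all genes tested passed. LDHA had 135, 164 and 169 RPKM with CD73 siRNA and 228, 194 and 201 RPKM in the control. Every CD73 siRNA sample lay below every control sample, and the mean, 156 ± 18.5 RPKM (SD, n = 3), was 75.3% of the control mean, 208 ± 17.6 RPKM. The difference on log2(RPKM + 1), CD73 siRNA minus control, was -0.41 (SE 0.118, limma, unadjusted p = 0.00837, adjusted p = 0.307), and within replicate numbers 1, 2 and 3 it was -0.75, -0.24 and -0.25. The threshold was an unadjusted p below 0.01, the one the study used. At the adjusted threshold of 0.05 no gene of the 41 passed. LDHA (ENSG00000134333, GENCODE 29, chromosome 11, 18394388 to 18408425, plus strand) shares no exon with another annotated gene, and 3 named LDHA pseudogenes summed to 1.03 to 2.03 RPKM per sample. The LDHA call was lost, with the direction kept, in 9 of 14 other settings, with unadjusted limma p-values from 0.0108 to 0.0304. These were no filter, quantile normalization, rescaling to equal sums, no moderation and leaving out CD73 siRNA 1 (-0.31) or 2 (-0.45) or negative control 1 (-0.34), 2 (-0.46) or 3 (-0.43). In bulk RNA, fewer cells that express a gene and less of its RNA per cell cannot be told apart.

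The other 4 genes of lactate and pyruvate fate did not pass the threshold without the block. SLC16A1 (ENSG00000155380, chromosome 1, 112911847 to 112957013, minus strand) had 22.0, 19.4 and 23.0 RPKM with CD73 siRNA and 34.4, 24.0 and 30.7 RPKM in the control. All CD73 siRNA samples lay below all controls, though control 2 was close to CD73 siRNA 3. The mean was 72.2% of control and the log2 difference -0.44 (SE 0.144, limma, unadjusted p = 0.0154, adjusted p = 0.342), which misses the threshold. Blocking on the replicate number gave an unadjusted p = 0.00214 (limma, adjusted p = 0.113), which passes it.

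LDHB had 238, 218 and 250 RPKM with CD73 siRNA and 296, 239 and 308 RPKM in the control, and the groups overlapped by the value of control 2. Its log2 difference was -0.25 (SE 0.12, limma, unadjusted p = 0.0721, adjusted p = 0.449), and with the block it passed the threshold (unadjusted p = 0.00922, adjusted p = 0.129). LDHB shares 33.4% of its exon length with another annotated gene, which bears on its count in the same way as for ALDOA. SLC16A3 had 41.7, 40.3 and 48.2 RPKM against 64.1, 42.9 and 49.8 RPKM, a log2 difference of -0.25 (SE 0.154, limma, adjusted p = 0.541) that was -0.092 without negative control 1 and -0.38 without negative control 2. PDK1, a kinase that inhibits pyruvate dehydrogenase and so the conversion of pyruvate to acetyl-CoA, had levels between 1.57 and 2.66 RPKM in both groups and a log2 difference of 0.03 (SE 0.182, limma, adjusted p = 0.963). Of these 5 genes, 4 had negative differences within every replicate number, as did 24.5% of all genes tested. Of 14 further genes of pyruvate and lactate fate that were tested, 6 had positive and 8 negative differences, with a median of -0.02 and no call.

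The glycolytic enzymes had no gene past the threshold without the block and a median log2 difference of 0.01. PFKL (ENSG00000141959, chromosome 21, 44300051 to 44327376, plus strand) had 11.3, 11.2 and 10.8 RPKM with CD73 siRNA and 6.94, 9.75 and 7.47 RPKM in the control. Every CD73 siRNA sample lay above every control, and the CD73 siRNA samples lay close together. The mean was 138% of control, the log2 difference 0.43 (SE 0.131, limma, unadjusted p = 0.0114, adjusted p = 0.325), and with the block it passed the threshold (unadjusted p = 0.00559, adjusted p = 0.119). The differences within replicate numbers were 0.63, 0.19 and 0.47.

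For GAPDH, ALDOA, TPI1, ENO1 and PKM the difference between groups was smaller than its standard error. GAPDH had 530, 565 and 589 RPKM with CD73 siRNA against 592, 539 and 567 RPKM, a log2 difference of -0.01 (SE 0.0896, limma, adjusted p = 0.969), whose sign turned positive, 0.02, when the RPKM were rescaled to equal sums. Among these 5 enzymes the log2 differences ran from -0.05 to 0.03, with SE from 0.0887 to 0.114, and TPI1 and PKM also changed sign under other scalings. PGK1 and PGAM1, the kinase and mutase that follow GAPDH, were higher within all 3 replicate numbers, by 0.10 (SE 0.0916, limma, adjusted p = 0.691) and 0.15 (SE 0.0977, limma, adjusted p = 0.563). So were PFKFB3 by 0.28 (SE 0.194, limma, adjusted p = 0.592), ENO2 by 0.26 (SE 0.21, limma, adjusted p = 0.641) and PFKFB4 by 0.08 (SE 0.169, limma, adjusted p = 0.882). HK1, PFKM and PFKP were lower within all 3, with differences of -0.24 (SE 0.138, limma, adjusted p = 0.501), -0.17 (SE 0.129, limma, adjusted p = 0.627) and -0.05 (SE 0.11, limma, adjusted p = 0.89). Without CD73 siRNA 1 the HK1 difference was -0.12, and the PFKM difference was -0.073 without CD73 siRNA 2 and -0.10 without negative control 1. That of PGK1 was 0.053 without negative control 3, that of PFKFB3 0.049 without negative control 1 and that of ENO2 0.11 without CD73 siRNA 2. Of the 17 enzymes, 9 had positive and 8 negative differences. Within every replicate number 6 had positive and 3 negative differences, 52.9% of the 17 against 51.4% of all genes tested. PKM was counted as a gene, which does not separate its PKM1 and PKM2 isoforms. SLC2A1 had 11.0, 14.0 and 12.5 RPKM with CD73 siRNA against 14.2, 15.5 and 10.8 RPKM, groups that overlapped, and a log2 difference of -0.09 (SE 0.151, limma, adjusted p = 0.843).

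**Figure D3:**
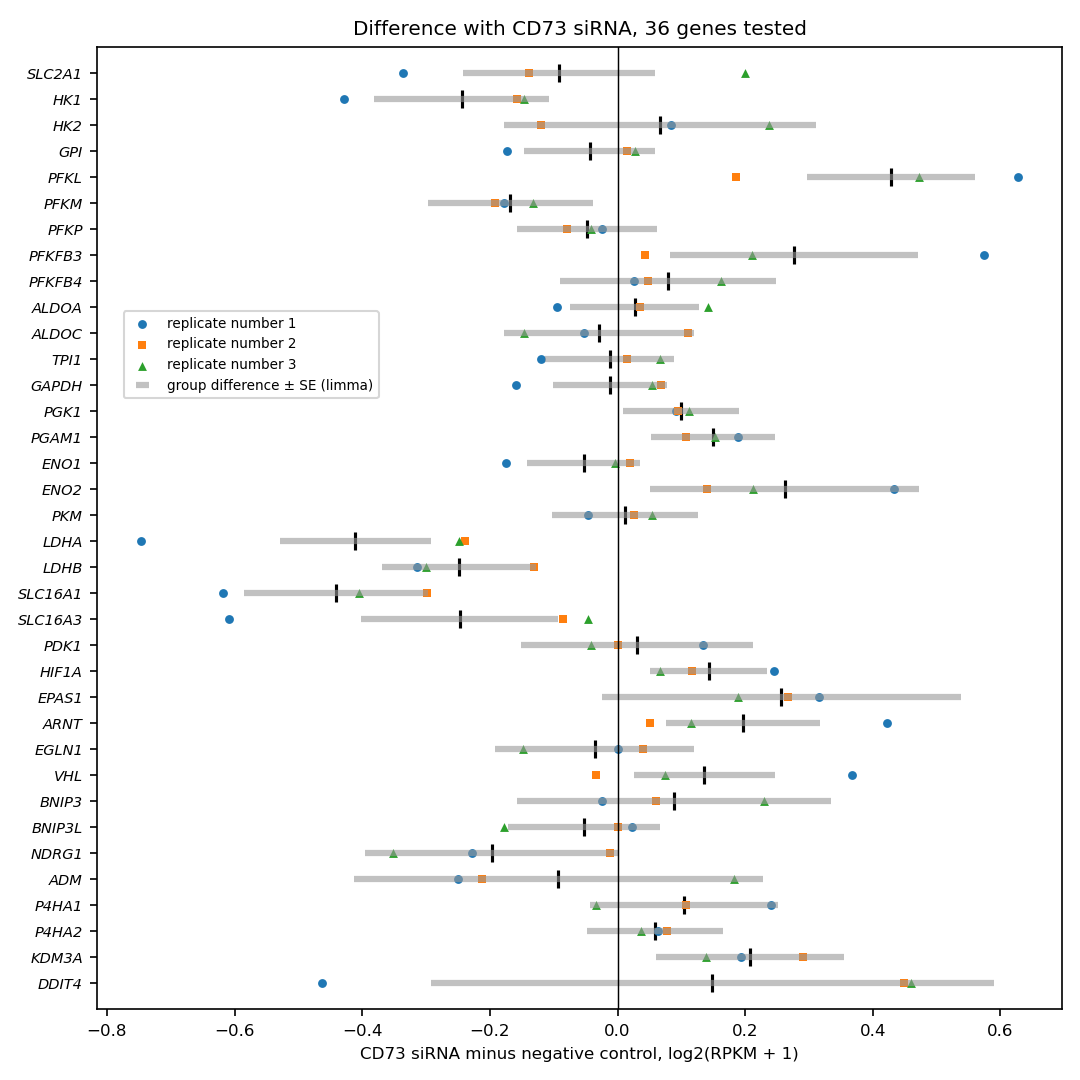
Difference on log2(RPKM + 1), CD73 siRNA minus negative control, for the 36 genes tested, as the mean difference with its standard error and as the difference within each replicate number. LDHA and SLC16A1 lie lowest, at -0.41 and -0.44, PFKL lies highest at 0.43, and the others lie within 0.3 of zero.

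HIF subunits had positive differences in all 3 replicate numbers, as did 27% of all genes tested, without passing the threshold. HIF1A (ENSG00000100644, chromosome 14, 61695513 to 61748259, plus strand) had 33.8, 31.7 and 32.7 RPKM with CD73 siRNA and 28.3, 29.1 and 31.2 RPKM in the control. All CD73 siRNA samples lay above all controls, by a small margin between CD73 siRNA 2 and control 3. The mean was 111% of control and the log2 difference 0.14 (SE 0.0913, limma, adjusted p = 0.554). ARNT had 12.4, 12.5 and 11.6 RPKM against 8.98, 12.0 and 10.6 RPKM (log2 difference 0.20, SE 0.121, limma, adjusted p = 0.536), and EPAS1 had 2.58, 3.05 and 1.18 RPKM against 1.88, 2.36 and 0.912 RPKM (0.26, SE 0.282, limma, adjusted p = 0.738). In EPAS1 the third sample was low in both groups, and leaving out single samples moved the difference between 0.023 (without negative control 3) and 0.52 (without CD73 siRNA 3). Without negative control 1 the difference was 0.095 for ARNT and 0.044 for VHL. VHL, which targets HIF alpha subunits for destruction, had 22.3, 20.9 and 21.5 RPKM against 17.1, 21.4 and 20.4 RPKM, with groups that overlapped (0.14, SE 0.11, limma, adjusted p = 0.646). EGLN1 had a log2 difference of -0.04 (SE 0.156, limma, adjusted p = 0.945). EGLN3, itself a HIF target, had 0.0761, 0.0173 and 0.0484 RPKM against 0.127, 0.0875 and 0.127 RPKM. Its groups did not overlap (exact permutation p = 0.1), but these values rest on 2 to 15 reads per sample and it was not tested by limma.

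None of the tested genes grouped here as HIF targets passed the threshold, a group that leaves out LDHA and other glycolytic genes that HIF also controls. Of its 11 genes, 8 were high enough to be tested, 5 with positive and 3 with negative differences, from -0.20 for NDRG1 to 0.21 for KDM3A, a histone demethylase. Leaving out single samples, the difference ran from -0.37 (without CD73 siRNA 2) to -0.015 (without CD73 siRNA 3) for NDRG1 and from 0.091 (without CD73 siRNA 2) to 0.33 (without CD73 siRNA 3) for KDM3A. CA9, the classic marker of HIF activity, was at 0.0372, 0.114 and 0 RPKM with CD73 siRNA and 0.0373, 0.0386 and 0 RPKM in the control, at most 3 reads in any sample. CA12, also a target, was at 0.17, 0.139 and 0.13 RPKM against 0.213, 0.185 and 0.191 RPKM. Its groups did not overlap (exact permutation p = 0.1), on 16 to 25 reads per sample. ANKRD37 stayed at or below 1.02 RPKM. ADM, which encodes the vasodilator peptide adrenomedullin, had 41.8, 75.5 and 43.7 RPKM with CD73 siRNA and 49.9, 87.5 and 38.4 RPKM in the control, the highest level of the targets. Its log2 difference between groups was -0.09 (SE 0.32, limma, adjusted p = 0.932). The 11 targets summed to 0.0609% ± 0.0116 of all RPKM with CD73 siRNA and 0.0595% ± 0.0141 in the control (SD, n = 3 each, exact permutation p = 1).

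Counted together, 36 of the 41 genes reached 1 RPKM in at least 3 samples and were tested. SLC2A3, EGLN3, CA9, CA12 and ANKRD37 did not. Of the 36, LDHA alone was called, in the lower direction, while 3.13% of all 12527 genes tested were called, 1.82% higher and 1.31% lower. With the replicate number as a block, 4 were called, PFKL higher and LDHA, LDHB and SLC16A1 lower, while 7.57% of all genes were called, 4.27% higher and 3.3% lower. No gene of the 36 passed an adjusted p of 0.05 in either fit, where 0.00798% and 0% of all genes did, and the count at an unadjusted p below 0.05 was 3 (PFKL, LDHA and SLC16A1), against 12.1% of all genes, 7.22% higher and 4.9% lower. Groups did not overlap in 2 genes that were higher, PFKL and HIF1A, and 2 that were lower, LDHA and SLC16A1, 11.1% of the 36 against 18.4% of all genes (10.3% higher and 8.07% lower). In 11 genes the difference was positive and in 8 it was negative within every replicate number, 52.8% of the 36 against 51.4% of all genes (27% positive and 24.5% negative). The median log2 difference was 0.02, against 0.01 over all genes tested, and within replicate numbers it was -0.02, 0.03 and 0.06.

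Replicate number separated several of these genes more than the siRNA did. ADM had its highest level in sample 2 of both groups, 75.5 and 87.5 RPKM, against 38.4 to 49.9 RPKM in the other samples. BNIP3, a HIF target, had 34.0, 38.1 and 23.9 RPKM with CD73 siRNA and 34.6, 36.4 and 20.2 RPKM in the control, with sample 3 lowest in both. DDIT4, an inhibitor of mTORC1 induced by stress and low oxygen, had 6.41, 5.62 and 16.5 RPKM against 9.21, 3.85 and 11.7 RPKM, with sample 3 highest and sample 2 lowest in both groups. HK2 was lowest in sample 1 of both groups, at 5.57 and 5.20 RPKM. ENO2 was highest in sample 2 of both groups.

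A moderated F test of the replicate number, chosen after the data were seen, called 7 of the 36 genes at an unadjusted p below 0.01, against 9.27% of all genes tested. They were HK2, PFKFB4, ENO2, EPAS1, BNIP3, ADM and DDIT4. ADM (limma, adjusted p = 0.0375) and BNIP3 (adjusted p = 0.0397) passed an adjusted p of 0.05, which 1.82% of all genes did. The replicate number took a median of 69.5% of the sum of squares of these 36 genes and 81.3% of that of the 8 tested HIF targets among them, against 54.1% for 34 further HIF targets and 51.9% over all genes. The siRNA group took a median of 13.0% in the 36 genes and 20.8% over all genes. Part of each share arises from spread between samples alone, and more so for the replicate number than for the group. What differed between the replicate numbers is not given in the sources used here. BNIP3 has 15 named pseudogenes that held 21.4% of the RPKM of gene and copies together but only 2.84% of their reads, and 41.2% of the exon length of DDIT4 is shared with an antisense gene.

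**Figure D4:**
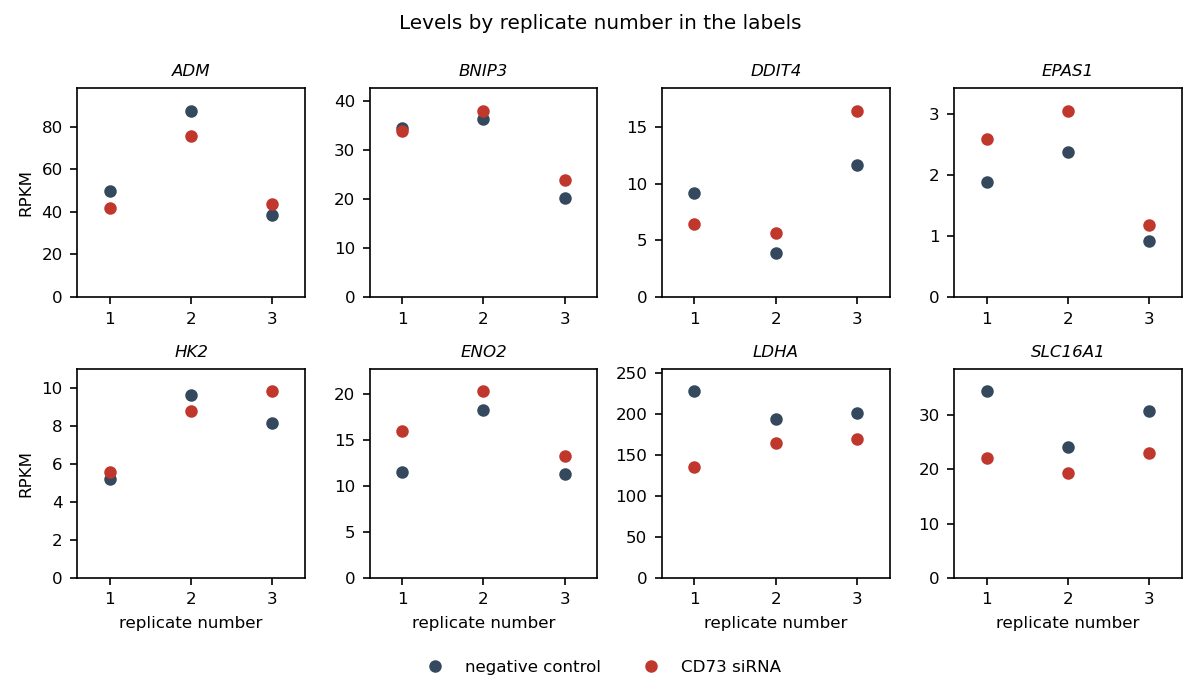
Levels in RPKM by replicate number for 8 genes, with a point for negative control and a point for CD73 siRNA at each number. ADM peaks at number 2 and BNIP3 and EPAS1 are lowest at number 3 in both groups, while LDHA and SLC16A1 are lower with CD73 siRNA at each number.

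Of 93 further genes of these pathways, 91 were in the data and 70 were tested. Of the 70, 3 were called (4.29%, against 3.13% of all genes tested), all HIF targets. LOXL2, a lysyl oxidase that crosslinks collagen, had 10.5, 14.9 and 11.0 RPKM with CD73 siRNA and 26.1, 20.9 and 15.9 RPKM in the control (log2 difference -0.73, SE 0.194, limma, unadjusted p = 0.00547, adjusted p = 0.303). PLOD2, a collagen lysyl hydroxylase, had 33.8, 34.3 and 38.1 RPKM against 47.3, 43.0 and 45.8 RPKM (-0.35, SE 0.0962, limma, unadjusted p = 0.00643, adjusted p = 0.305). SLC6A8, the creatine transporter, was higher, at 29.04, 32.1 and 32.1 RPKM against 19.5, 25.3 and 19.9 RPKM (0.52, SE 0.122, limma, unadjusted p = 0.00289, adjusted p = 0.303). Groups did not overlap in 6 higher and 9 lower genes, 21.4% of the 70 against 18.4% of all genes tested. The 3 called genes were among them, which is no added support, since the p-values that picked them used the same samples. Each called gene kept its direction but lost its call in some other settings, LOXL2 with no filter and without moderation, PLOD2 with RPKM rescaled to equal sums and SLC6A8 without moderation. Calls were also lost on leaving out some samples: LOXL2 without CD73 siRNA 1 (-0.64) or 3 (-0.67) or negative control 1 (-0.57) or 2 (-0.72), PLOD2 without CD73 siRNA 1 (-0.32) or 2 (-0.33) or negative control 1 (-0.32) or 3 (-0.34), and SLC6A8 without CD73 siRNA 2 (0.49) or 3 (0.49) or negative control 1 (0.45) or 3 (0.47). The other groups of this list, 16 genes of sugar entry and glycogen, 14 of pyruvate and lactate fate and 6 of HIF subunits and turnover, had no call. With the replicate block 9 of the 70 were called (12.9%, against 7.57% of all genes), 4 higher and 5 lower, among them GYS1, SLC2A12 and KLF6 (higher) and PYGL and ANGPTL4 (lower).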

How the data were processed

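RNA-seq of 3 CD73 siRNA and 3 negative control samples was analysed. The authors deposited 1 table of RPKM values per sample. The unit is not stated. It was read from the values, which, times the merged exon length of GENCODE 29, were whole reads within 0.05 in 95.5% to 95.6% of genes under 1000 reads. Library sizes and reads per gene were inferred in the same way. The submitters' processing notes name bcl2fastq, Bowtie2 2.2.3, HTSeq 0.6.0 and hg38, with no role or order. Strand use in counting is not given in the sources used here. Library size and gene length therefore enter every value. Of the identifiers, 30384 of 30735 had a symbol in the name table. Genes that reached 1 RPKM in 3 or more samples were tested on log2(RPKM + 1), a scale that understates changes of low genes, by limma 3.58.1 (R 4.3.3, eBayes with trend), with p-values adjusted over all genes tested by the method of Benjamini and Hochberg. A gene was called at an unadjusted p below 0.01. Single values had an exact permutation test, two-sided, whose smallest p is 0.1.

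Same-numbered samples of the groups deviated together (correlations of deviations from group means 0.197, 0.481 and 0.553), and the numbers were taken as pairing, so a fit with the number as a block stands beside results it changes. P-values measure the spread between these samples. The alternatives were another pseudocount, other filters, median centring, quantile normalization, rescaling to equal sums, no moderation, adjusted p and each sample left out. The script was tested on simulated data.

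The 41 genes and all lists were chosen with earlier results of these data known. Values per sample are given for genes past the threshold with or without the block, genes whose groups do not overlap, isoenzyme pairs in controls, and HIF1A, VHL, CA9 and GAPDH, and those shown for the replicate number were chosen after the data were seen. Of the further pathway genes, those past the threshold are named. PGAM2, HIF3A, PRSS1, CPA1 and DCN were not analysed here.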

Additional observations from a re-analysis of the deposited data

How the results depend on the processing

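The count of these genes past the threshold was 1, and became 4 with the replicate block, 0 without a filter, 0 with RPKM rescaled to equal sums, 0 without moderation, 0 at an adjusted p, and 0 to 2 leaving out samples. Over all genes the count of 392 became 948 with the replicate block, 216 without moderation, 1 at an adjusted p, and 116 (without CD73 siRNA 1) to 792 (without negative control 2). It was 188 without negative control 1 and 258 without negative control 3. Of the further pathway genes 9 were called with the block, against 3, and 0 to 7 leaving out samples. Without moderation NT5E, at -1.23, missed the threshold (linear model per gene, unadjusted p = 0.023). PFKL (0.56) and SLC16A1 (-0.58) passed without negative control 2, and PFKL also with quantile normalization. Among the 36 genes the block changed the calls of PFKL, LDHB and SLC16A1 and no other. The share of calls that were higher was 58.2%, 66.8% after rescaling, 46.5% without CD73 siRNA 3 and 68.2% without negative control 2. Of 36 genes, 19 kept their sign in every alternative and 17, all uncalled, did not. TPI1 became 0.044 with quantile normalization and 0.018 rescaled, GAPDH 0.018 rescaled, PKM -0.0072 median centred and PDK1 -0.0088 with quantile normalization. Leaving out samples, the ranges were -0.23 to 0.0096 for SLC2A1, -0.16 to 0.28 for HK2, -0.088 to 0.035 for GPI, -0.12 to 0.014 for PFKP, -0.080 to 0.20 for PFKFB4, -0.033 to 0.11 for ALDOA, -0.16 to 0.058 for ALDOC, -0.073 to 0.049 for TPI1, -0.047 to 0.029 for GAPDH, -0.086 to 0.0028 for ENO1, -0.071 to 0.087 for PKM, -0.090 to 0.17 for PDK1, -0.16 to 0.10 for EGLN1, -0.17 to 0.28 for BNIP3, -0.12 to 0.052 for BNIP3L, -0.36 to 0.23 for ADM and -0.29 to 0.43 for DDIT4. The cause of these changes was not tested. EGLN3, CA9 and CA12 rest on at most 25 reads per sample, so that counting error limits their comparison.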
